A study of Sus scrofa with 6 samples.

Results

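Coagulation and fibrinolysis genes start, limit or dissolve a blood clot at the vessel wall, and 9 of them were followed in the abdominal aorta of pigs on an atherogenic diet. They were chosen by symbol and are F3, F13A1, TFPI, TFPI2, THBD, PROCR, PLAU, PLAUR and PLAT. Each symbol belonged to 1 row of the expression table, so 9 of its 30477 genes are described. In a separate list of pig gene names, the gene IDs of 8 members carried the same symbol. The gene ID of THBD had no symbol there, so its name rests on the expression table alone. The animals were male Wuzhishan miniature pigs without a named genetic modification, and they received either normal chow (NC group, 3 pigs) or a diet high in fat, cholesterol and fructose (HFCF group, 3 pigs) for 6 months. The sample labels give an age of 3 to 4 months, while the methods give an older age at purchase. The pigs were bled out under anesthesia, and total RNA of abdominal aorta tissue was sequenced with 1 library per pig. Each value averages over all cells of the piece, including any blood left in it. The p-values weigh the difference between the groups against the spread between these pigs.

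Clotting at a vessel wall starts when tissue factor, the product of F3, meets factor VII of the blood, and it ends in fibrin strands that factor XIII, whose A subunit comes from F13A1, links together. The wall restrains this through the inhibitors TFPI and TFPI2 and through thrombomodulin (THBD), which turns thrombin into an activator of protein C while the endothelial protein C receptor (PROCR) holds protein C in place. Fibrin is later dissolved by plasmin, which urokinase (PLAU, bound to cells by its receptor PLAUR) and tissue-type plasminogen activator (PLAT) release from plasminogen.

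Values are FPKM, fragments scaled for exon length and for the mapped reads of the library, so that levels can be compared between genes. Fold changes are differences of the group means of log2(FPKM + 0.1), HFCF minus NC, and understate the change of genes with low FPKM. The 15384 genes whose mean FPKM reached 0.1 were tested with limma and Benjamini-Hochberg adjustment, and a gene was called at an adjusted p under 0.05. Read totals were not given. The most common ratio between low values of genes with 1 transcript put the depths of the libraries at 1.02 to 1.37 times that of NC pig 1. In the HFCF libraries this ratio rested on 18 to 22 of 1277 to 1404 genes, so these depths are rough. Pearson correlations across genes were 0.927 to 0.970 within groups and 0.841 to 0.910 between them. Over all tested genes the median change was 0.32, and the main changes are also given relative to it. HFCF pig 1 stood apart from the other pigs in blood genes. HBB, the beta chain of hemoglobin, was at 2846 FPKM there and at 21.3 to 175 FPKM in the other 5 libraries. PPBP, a platelet granule protein, was at 5.71 FPKM there and at 0 to 0.0913 FPKM elsewhere, so results without this pig are given beside the members.

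All 9 members passed the filter. THBD alone was called, and it was lower in the HFCF group. The background was 28.9% of tested genes called in either direction, 22.8% called higher and 6.16% called lower, against 1, 0 and 1 of the 9 members. By the thresholds of the study, a ratio of group means above 2 or below 0.5 with an unadjusted p under 0.05, THBD, TFPI, F13A1 and PLAUR passed, which was 4 of 9 against 25.5% of tested genes. Without HFCF pig 1, 1 member passed these thresholds, which was THBD. With all pigs, the values of the groups did not overlap in THBD, TFPI, F13A1 and PLAUR, against 48.2% of tested genes. The median log2 fold change of the members was 0.51, and without HFCF pig 1 it was 0.37 against 0.30 for all genes. In 5 of the 9 members the highest of all 6 values was that of HFCF pig 1. With only 9 genes, these counts describe the members and set them apart from no other group of genes.

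**Figure D1:**
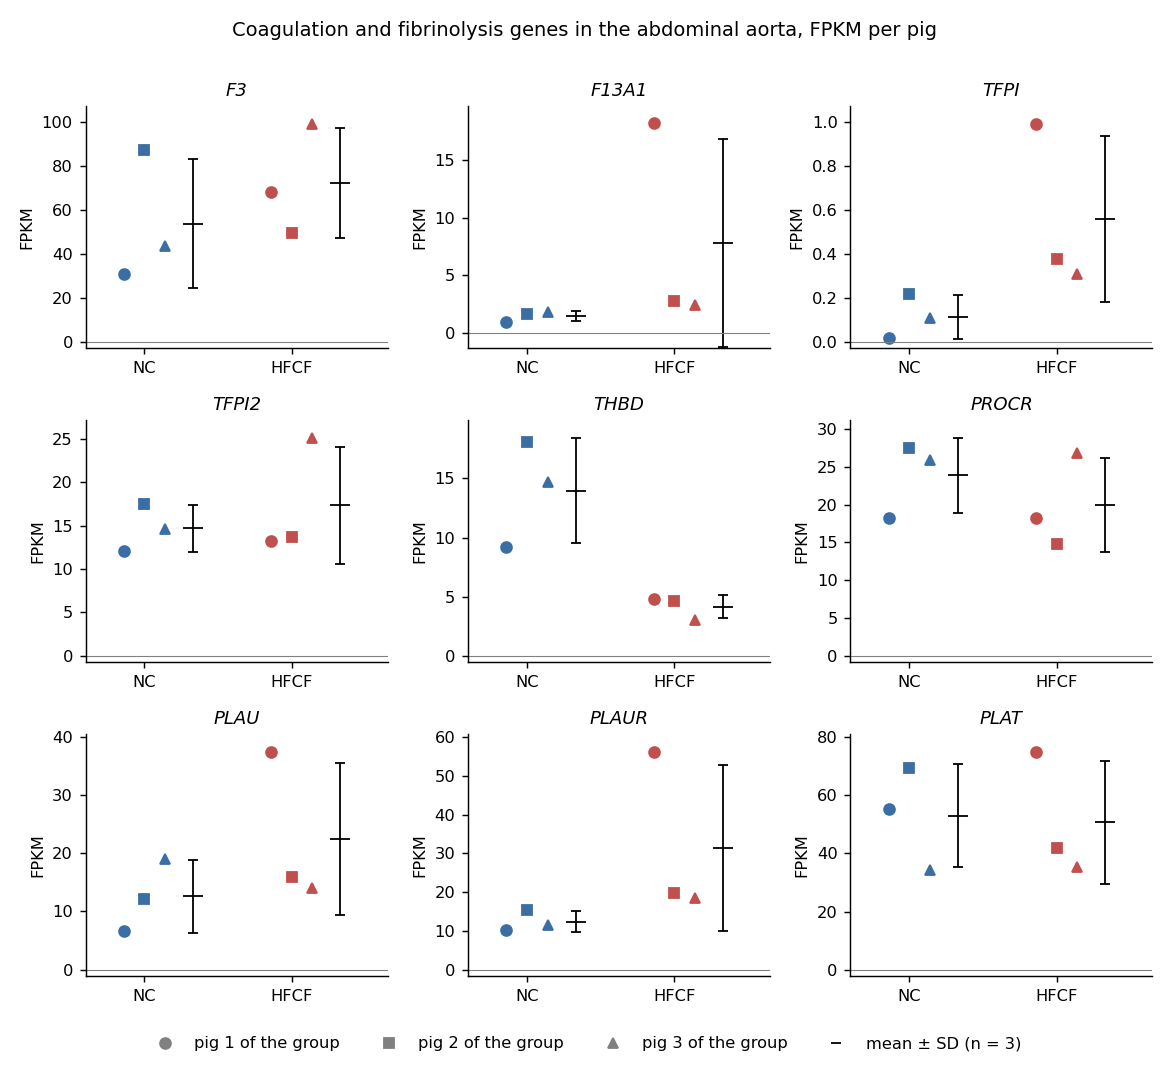
FPKM of each of the 9 genes in each pig, 1 panel per gene with its own linear axis, NC in blue and HFCF in red, with the mean ± SD of 3 pigs in black beside the points. THBD reaches 3.05 to 4.82 in the HFCF pigs and 9.22 to 18.1 in the NC pigs, while HFCF pig 1 (circle) is far above the other pigs in F13A1, TFPI, PLAU and PLAUR.

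F3, the tissue factor gene, was among the more abundant transcripts of the wall, with a mean above that of 95.8% of tested genes in the NC group and the HFCF group combined. Its FPKM was 30.9, 87.1 and 43.4 in the NC pigs, compared with 68.3, 49.6 and 99.2 in the HFCF pigs. The groups overlapped, and the NC pigs differed among themselves by up to 2.82-fold. Mean FPKM was 53.8 ± 29.5 in the NC group and 72.4 ± 25.0 in the HFCF group (SD, n = 3 each). This was a log2 fold change of 0.51 with a 95% interval from -0.46 to 1.48 (adjusted p = 0.385, limma), or 0.19 relative to the median gene. The interval includes both a fall and more than a doubling, so a change of F3 was not detectable with 3 pigs per group. Without HFCF pig 1 the value was nearly the same, at 0.52.

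F13A1 encodes the catalytic subunit of factor XIII and is made by platelets and by some tissue macrophages. Its FPKM was 0.914, 1.57 and 1.78 in the NC pigs, against 18.2, 2.78 and 2.38 in the HFCF pigs. The groups did not overlap, but HFCF pig 1 alone was 7.07 times the mean of the other HFCF pigs. The log2 fold change of 1.79 (SE 0.75) had an adjusted p of 0.114 (limma) and dropped to 0.86 without HFCF pig 1, with an adjusted p of 0.118. In that library 7 of 10 platelet markers had their highest value. TREML1, CLEC1B and GP1BB were at 1.56, 1.99 and 1.44 FPKM there and at 0 in HFCF pigs 2 and 3, whereas GP1BA, GP9 and TBXA2R, at 0.351, 2.86 and 1.60 FPKM, did not exceed the NC range. The 10 markers summed to 32.2, 18.4 and 14.1 FPKM in the HFCF pigs and to 13.4 to 14.2 FPKM in the NC pigs. Of these sums, P2RY12 alone gave 8.43, 5.80 and 2.47 FPKM in the HFCF pigs and 0.0299 to 0.131 FPKM in the NC pigs. The part of platelets in the F13A1 value was not tested.

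Among the anticoagulants of the wall, THBD fell and the other 3 genes were not called. FPKM of THBD was 9.22, 18.1 and 14.7 in the NC pigs, against 4.82, 4.62 and 3.05 in the HFCF pigs. The lowest NC value was well above the highest HFCF value. Mean FPKM was 14.0 ± 4.46 against 4.16 ± 0.97, a ratio of 3.36 between NC and HFCF. The log2 fold change was -1.70 (SE 0.30, 95% interval -2.40 to -1.0, adjusted p = 0.00768, limma) and -2.02 relative to the median gene. The call held in 15 of 15 alternative settings, with values from -2.05 to -1.49, and without HFCF pig 1 the value was -1.81 (adjusted p = 0.0196). In whole tissue, fewer cells of a type and less RNA per cell cannot be told apart.

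PROCR, the partner of THBD in protein C activation, was at 18.2, 27.5 and 25.9 FPKM in the NC pigs and at 18.3, 14.7 and 26.8 FPKM in the HFCF pigs. The groups overlapped widely, since the highest HFCF value exceeded all but 1 NC value. Its log2 fold change was -0.28 (95% interval -0.90 to 0.34, adjusted p = 0.456, limma), or -0.24 without HFCF pig 1. A fall of PROCR as large as that estimated for THBD lay outside this interval. Within each library, THBD was 0.507, 0.657 and 0.566 times PROCR in the NC pigs and 0.264, 0.314 and 0.114 times PROCR in the HFCF pigs. These ratios do not depend on how a library is scaled, and they did not overlap between the groups (exact two-sided permutation test of the log2 ratio, p = 0.1, the smallest that 3 against 3 pigs can give). Adjusted over the 11 ratios computed, the p was 0.157.

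TFPI, the main inhibitor of the tissue factor and factor VIIa complex, was barely measured in this tissue, and only 13.9% of tested genes had a lower mean. Its FPKM was 0.0168, 0.216 and 0.107 in the NC pigs, against 0.991, 0.376 and 0.307 in the HFCF pigs. The groups did not overlap, and the NC values spread over 12.8-fold. On the log2 scale the difference was 1.60 (SE 0.55, adjusted p = 0.0667, limma) and 1.16 without HFCF pig 1 (adjusted p = 0.139). At such low levels the size was set largely by the constant added before the log, with 0.46 for a constant of 1 and 2.48 for 0.01 (adjusted p = 0.0964 and 0.0824, limma). The deposited table holds 1 transcript of TFPI, whereas the RefSeq annotation of the pig lists 6, and the effect of this on its FPKM was not tested. TFPI2, a matrix-bound inhibitor that acts on plasmin as well as on clotting proteases, was far more abundant, at 12.01, 17.5 and 14.6 FPKM in the NC pigs and 13.2, 13.6 and 25.1 FPKM in the HFCF pigs. HFCF pigs 1 and 2 lay within the NC range and pig 3 lay above it. The log2 fold change of TFPI2 was 0.19 (95% interval -0.48 to 0.85, adjusted p = 0.649, limma), or 0.35 without HFCF pig 1, and its sign depended on how the libraries were scaled.

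**Figure D2:**
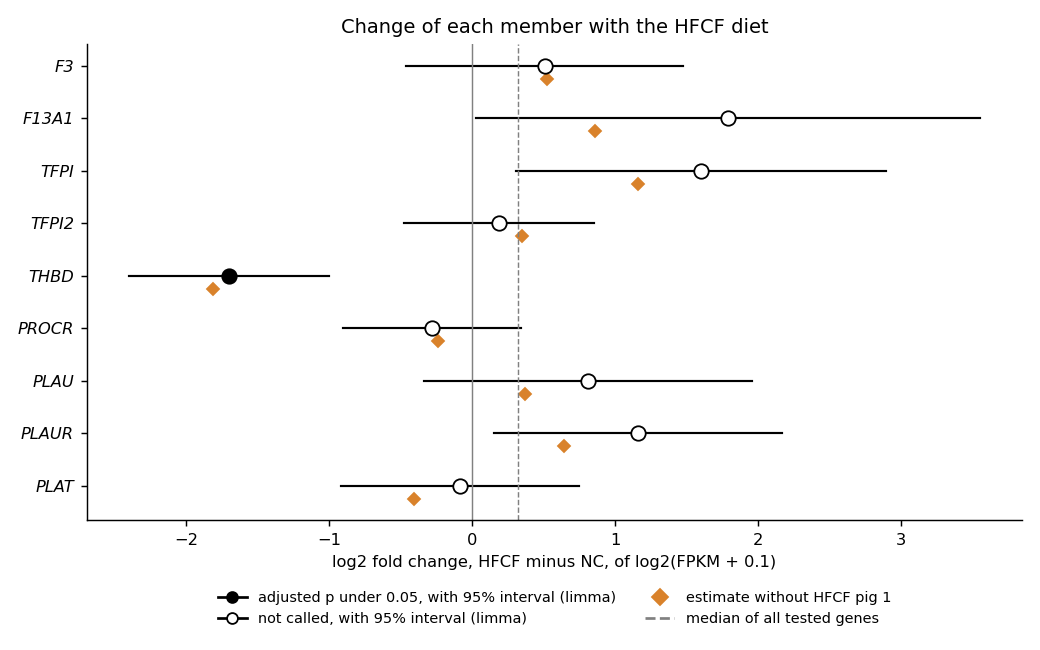
Log2 fold change of each gene, HFCF minus NC on the log2(FPKM + 0.1) scale, as a circle with its 95% limma interval, filled where the adjusted p was under 0.05, with the estimate without HFCF pig 1 as a diamond and the median of all tested genes (0.32) as a dashed line. THBD is the 1 filled circle, at -1.70. The diamonds of F13A1, PLAU and PLAUR lie well to the left of their circles.

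No gene of plasminogen activation was called, although PLAUR did not overlap between the groups. FPKM of PLAUR, the cell-surface receptor of urokinase, was 10.3, 15.5 and 11.4 in the NC pigs, against 56.1, 19.8 and 18.5 in the HFCF pigs. All 3 HFCF values exceeded the NC values, with pig 1 far above the rest. The mean was 12.4 ± 2.73 in the NC group and 31.5 ± 21.4 in the HFCF group. As a log2 fold change this was 1.16 (SE 0.43, 95% interval 0.15 to 2.17, adjusted p = 0.0814, limma). Without HFCF pig 1 it was 0.64 with an adjusted p of 0.0748, so the size depended on this pig while the adjusted p stayed on the same side of the threshold.

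PLAU, the urokinase gene, was at 6.58, 12.2 and 19.1 FPKM in the NC pigs and at 37.4, 15.9 and 14.0 FPKM in the HFCF pigs. HFCF pigs 2 and 3 lay within the NC range and only pig 1 lay above it. The log2 fold change of 0.81 (SE 0.48, adjusted p = 0.247, limma) became 0.37 without that pig. PLAT, the gene of tissue-type plasminogen activator, which endothelium releases, was at 55.3, 69.4 and 34.4 FPKM in the NC pigs and at 74.9, 41.7 and 35.3 FPKM in the HFCF pigs. The ranges were nearly the same in both groups. Its log2 fold change was -0.09 (95% interval -0.92 to 0.74, adjusted p = 0.875, limma), or -0.41 without HFCF pig 1, and the sign changed when single pigs were left out. Per kilobase, PLAT was the more abundant of the plasminogen activators in every pig. PLAU was 0.119, 0.175 and 0.554 times PLAT in the NC pigs and 0.499, 0.381 and 0.396 times PLAT in the HFCF pigs, and these ratios overlapped (exact two-sided permutation test, p = 0.4).

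The other genes of clotting and fibrinolysis were taken from 7 lists with 58 genes, of which 52 were in the table and 40 were tested. Of these, 10 were called higher and 30 were not called (limma), beside the background of 22.8% called higher among all tested genes. Without HFCF pig 1, 11 were called higher at the same threshold, beside 2778 of all 15384 tested genes. Of the listed genes, 9 were called both ways. SERPINF2 was called only with this pig and F2RL1 and HRG only without it, and F2RL1 and HRG are named here because of this count.

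Of 7 tested clotting factors 1 was called. F5, which encodes the cofactor that speeds the activation of prothrombin, rose from 0.435, 0.485 and 0.329 FPKM in the NC pigs to 8.43, 5.83 and 2.20 FPKM in the HFCF pigs. Every HFCF pig was several times above every NC pig. On the log2 scale F5 rose by 3.25 (SE 0.48, adjusted p = 0.00462, limma) and by 2.85 without HFCF pig 1 (adjusted p = 0.0137). VWF, the endothelial and platelet protein that tethers platelets, was at 31.4, 32.1 and 18.2 FPKM in the NC pigs and at 50.9, 17.3 and 15.2 FPKM in the HFCF pigs. Its values overlapped, and the log2 fold change was -0.15 (adjusted p = 0.835, limma), with a sign that changed when HFCF pig 2 or 3 was left out. F11 and F2RL3 were listed at 0 in all 6 libraries, and F7, which encodes the plasma partner of tissue factor, was listed above 0 only in HFCF pig 1, at 0.106 FPKM.

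Genes that modify or export clotting factors were called higher in 2 of 4 cases, beside 22.8% of all tested genes. LMAN1, a cargo receptor for factors V and VIII, rose from a mean of 5.71 to 10.7 FPKM, a log2 change of 0.91 (adjusted p = 0.0107, limma). GGCX, the vitamin K-dependent carboxylase, rose from 14.6 to 24.6 FPKM, a log2 change of 0.75 (adjusted p = 0.0151). Relative to the median gene this was 0.43, and the call was lost with median-ratio scaling (0.40, adjusted p = 0.0961), with rescaling to TPM (0.49, adjusted p = 0.0674) and without NC pig 1 (adjusted p = 0.0505).

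Of 5 tested anticoagulant proteins, PROS1 was called. It encodes protein S, the cofactor of activated protein C and of TFPI. Its FPKM was 8.97, 8.85 and 9.64 in the NC pigs, against 15.1, 15.6 and 15.2 in the HFCF pigs, so the pigs of each group were close together and the groups were well apart. Protein S transcripts thus rose by 0.74 on the log2 scale (SE 0.13, adjusted p = 0.00808, limma), or 0.42 relative to the median gene, and the call was lost with median-ratio scaling (0.38, adjusted p = 0.0689). None of the 3 tested thrombin receptors was called. F2R, the main thrombin receptor, had means of 2.56 and 2.30 FPKM in the NC and HFCF groups and a log2 change of -0.17 (adjusted p = 0.626, limma).

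Of 8 tested fibrinolysis proteins, 4 were called higher, beside 22.8% of all tested genes. This count supports no statement on the list as a whole. PLGRKT, a plasminogen receptor, was at 1.67, 1.5 and 2.49 FPKM in the NC pigs and at 10.1, 7.67 and 7.59 FPKM in the HFCF pigs. The groups were far apart, and the log2 fold change was 2.13 (SE 0.25, adjusted p = 0.00211, limma). S100A10, which with annexin A2 binds PLAT and plasminogen at the cell surface, rose from a mean of 12.4 to 34.8 FPKM (log2 fold change 1.46, adjusted p = 0.00692). Its partner ANXA2 had means of 92.0 and 114 FPKM and was not called (log2 fold change 0.31, adjusted p = 0.126), and with median-ratio scaling its value was -0.046. SERPINE2, a protease inhibitor that acts on thrombin as well as on urokinase, was at 2.81, 1.76 and 3.74 FPKM in the NC pigs and at 6.87, 11.8 and 7.98 FPKM in the HFCF pigs. It rose by 1.67 on the log2 scale (SE 0.32, adjusted p = 0.0108, limma). SERPINF2, the gene of the plasmin inhibitor antiplasmin, was at 0.0462 to 0.197 FPKM in the NC pigs and at 0.338 to 0.564 FPKM in the HFCF pigs (log2 fold change 1.36, adjusted p = 0.0461, limma). This call was lost in 12 of 14 alternative settings, among them each pig left out in turn, with an adjusted p of 0.0916 without HFCF pig 1. PLG itself had means of 0.304 and 0.157 FPKM in the NC and HFCF groups (log2 fold change -0.62, adjusted p = 0.354), and SERPINB2, the gene of PAI-2, was listed above 0 only in HFCF pig 1, at 0.311 FPKM.

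Of the 7 proteins that pair with the urokinase receptor, 2 were called. ITGAM and ITGB2, which form the leukocyte integrin Mac-1, rose from means of 0.580 and 1.63 FPKM to 8.51 and 23.1 FPKM. Their log2 fold changes were 3.33 and 3.49 (adjusted p = 0.00676 and 0.00384, limma). Both were highest in HFCF pig 1, and without it the changes were 2.65 and 2.90 (adjusted p = 0.00484 and 0.00303, limma). ITGAM and ITGB2 are leukocyte genes as well, and all 12 macrophage markers were higher in the same pigs. None of 6 tested transcription factors known to act on the members was called. KLF2, which raises THBD in endothelium, was at 68.2, 76.9 and 52.7 FPKM in the NC pigs and at 127, 77.7 and 95.2 FPKM in the HFCF pigs, without overlap and with a log2 change of 0.59 (adjusted p = 0.0943, limma). KLF4 had means of 31.4 and 36.8 FPKM (log2 fold change 0.22, adjusted p = 0.725), with a sign that changed with the scaling.

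**Figure D3:**
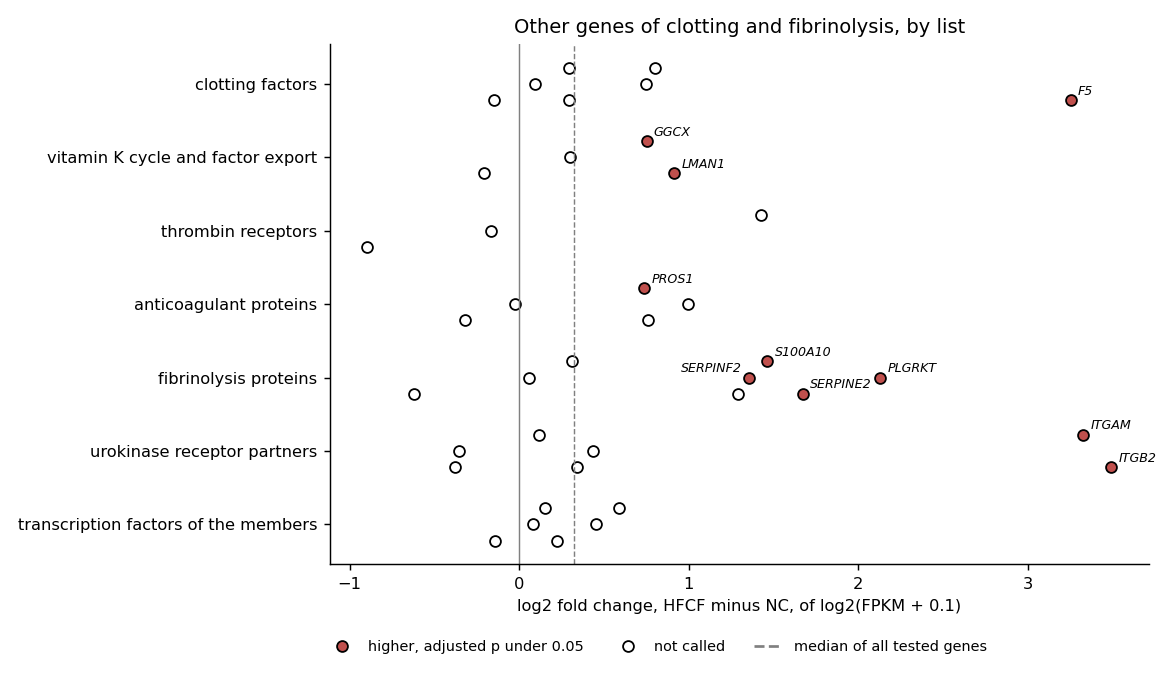
Log2 fold change, HFCF minus NC on the log2(FPKM + 0.1) scale, of the 40 tested genes of the 7 lists, 1 row per list with points spread vertically for legibility, filled red where called higher and open where not called (limma, adjusted p under 0.05). Most open points lie near the median of all tested genes (0.32, dashed), and the filled points farthest to the right are F5, ITGAM and ITGB2, at 3.25 to 3.49.

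Marker genes of other cell types moved with the diet or with single pigs. The summed FPKM of 12 macrophage markers was 106 to 113 in the NC pigs, against 2502, 1054 and 979 in the HFCF pigs. All 12 were called higher, and 11 without HFCF pig 1. Contractile smooth muscle markers summed to 16551 to 23921 in the NC pigs and to 8428 to 13355 in the HFCF pigs, and 7 of 10 were called lower, or 3 without HFCF pig 1. The 5 red blood cell markers summed to 2906 in HFCF pig 1 and to 22.1 to 180 in the other libraries. Of the 9 platelet markers tested, P2RY12 was the 1 that was called, with and without HFCF pig 1. Without that pig the median log2 fold change of the 9 was -0.0041. Neutrophil markers (5 genes) gave sums of 1.56 to 3.00 for NC pigs and 95.1, 13.7 and 6.37 for HFCF pigs, and 1 of the 4 tested was called higher with and without HFCF pig 1. T cell markers (8 genes) gave sums of 2.08 to 2.65 for NC pigs and 20.0, 3.96 and 5.96 for HFCF pigs, with 1 called higher, or 2 without HFCF pig 1. Endothelial markers gave sums of 324, 372 and 259 for NC pigs and 341, 251 and 187 for HFCF pigs. These sums overlapped through HFCF pig 1 alone, since HFCF pigs 2 and 3 lay below every NC pig. Of the 11 genes 0 were called higher and 1 lower with and without HFCF pig 1 (limma), and their median log2 fold change was 0.08, or -0.27 without that pig. The 1 called lower was ESAM, at 112, 133 and 126 FPKM in the NC pigs and 77.2, 73.4 and 75.7 FPKM in the HFCF pigs. It weighed heavily in the sums, whose order not every gene shared. PECAM1 was at 61.1 FPKM in HFCF pig 2 and at 40.9 FPKM in NC pig 3. Fibroblast markers overlapped as well, at 3572 to 6768 and 3675 to 6647, and so did adipocyte markers, at 51.3 to 318 and 76.8 to 105. Of the fibroblast markers 1 was called, LUM, which was higher with and without HFCF pig 1 (log2 fold change 1.96 with it, adjusted p = 0.00215, limma). Of the adipocyte markers 1 was called, PLIN4, which was lower (log2 fold change -1.60, adjusted p = 0.0296, limma), but not without that pig. The 13 protein genes of the mitochondrial genome took 4.55% to 6.78% of the summed FPKM in the NC pigs and 8.79% to 13.2% in the HFCF pigs, and the part of this shift in the members' values was not tested.

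**Figure D4:**
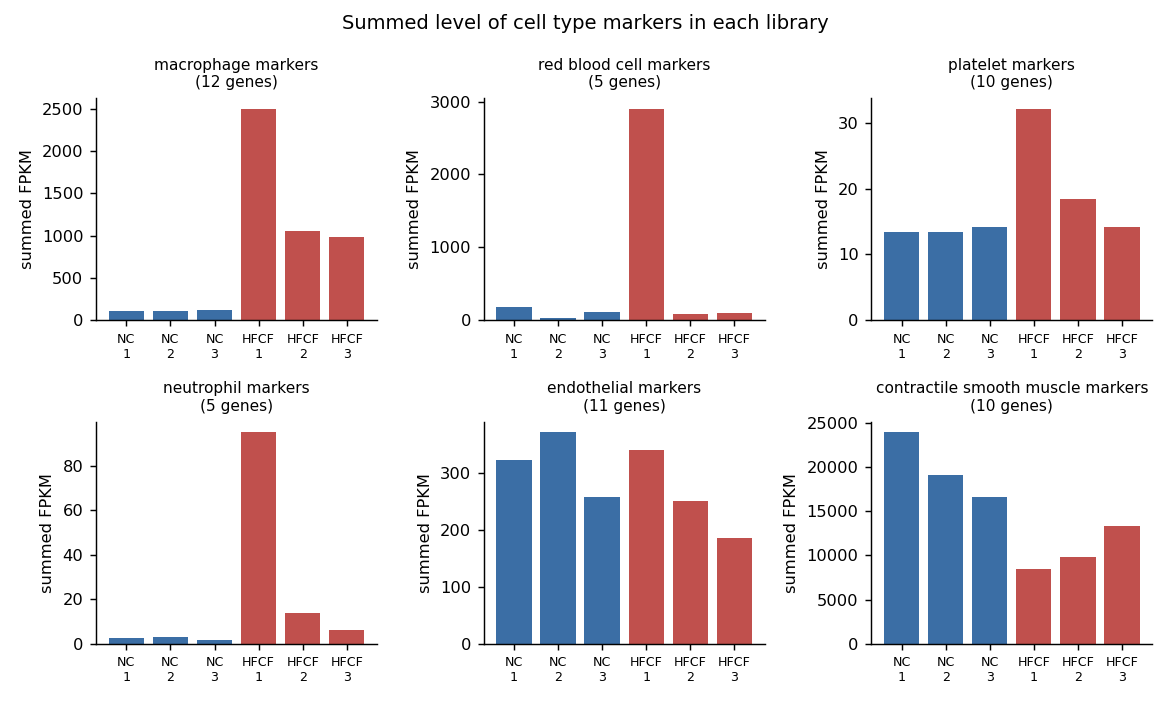
Summed FPKM of 6 marker lists in each of the 6 libraries, NC in blue and HFCF in red, with a linear axis from 0 in each panel. Macrophage markers are high in all HFCF pigs, red blood cell, platelet and neutrophil markers stand out in HFCF pig 1, and endothelial markers overlap between the groups through HFCF pig 1.

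Members that are known products of endothelium were set against the endothelial markers of the same library, as a ratio to the geometric mean of the 11 genes. For THBD this ratio was 0.605, 1.03 and 1.39 in the NC pigs, against 0.208, 0.321 and 0.305 in the HFCF pigs. The groups did not overlap, and the geometric mean was 3.49-fold lower in the HFCF group (exact two-sided permutation test, p = 0.1, the smallest possible, and 0.157 adjusted over 11 ratios). As a log2 difference this was -1.80, or -1.61 without HFCF pig 1, beside the log2 fold changes of -1.70 and -1.81 for THBD itself. PROCR and PLAT relative to the same markers overlapped between the groups, with log2 differences of -0.36 (p = 0.6, exact two-sided permutation test) and -0.17 (p = 0.2). TFPI relative to them was higher in every HFCF pig, with a log2 difference of 2.65, although this ratio rests on FPKM values under 1. It was 1.54 without NC pig 1 and 1.52 with 0.1 added to each value.

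Relative to the geometric mean of the 12 macrophage markers, the members that macrophages can make lay below all NC values in each HFCF pig. The log2 differences were -1.84 for F13A1, -2.52 for PLAUR and -2.87 for PLAU, each with the smallest possible exact two-sided permutation p of 0.1. PLAUR was 2.94, 4.30 and 2.64 times this mean in the NC pigs and 0.664, 0.541 and 0.488 times it in the HFCF pigs. The geometric mean of the macrophage markers thus differed between the groups by more than these 3 members did. This did not hold for every marker. MRC1 and CD14 had log2 fold changes of 1.31 and 1.71, below the 1.79 of F13A1, while the other markers lay above it. Which cells the transcripts came from was not tested. F3 over TFPI was 1836, 404 and 406 for NC pigs and 69.0, 132 and 323 for HFCF pigs, a log2 difference of -2.23 (exact two-sided permutation p = 0.1). The first NC pig stood far above the rest, and the difference was -1.50 without it and -1.09 with 0.1 added to each value. PLAUR over PLAU had geometric means of 1.06 and 1.35 (exact two-sided permutation p = 0.8). Of the 11 ratios 7 did not overlap between the groups, and the smallest adjusted p was 0.157. The 7 share members and denominators, 3 of them the macrophage markers that were all called higher, so they are not separate results.

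**Figure D5:**
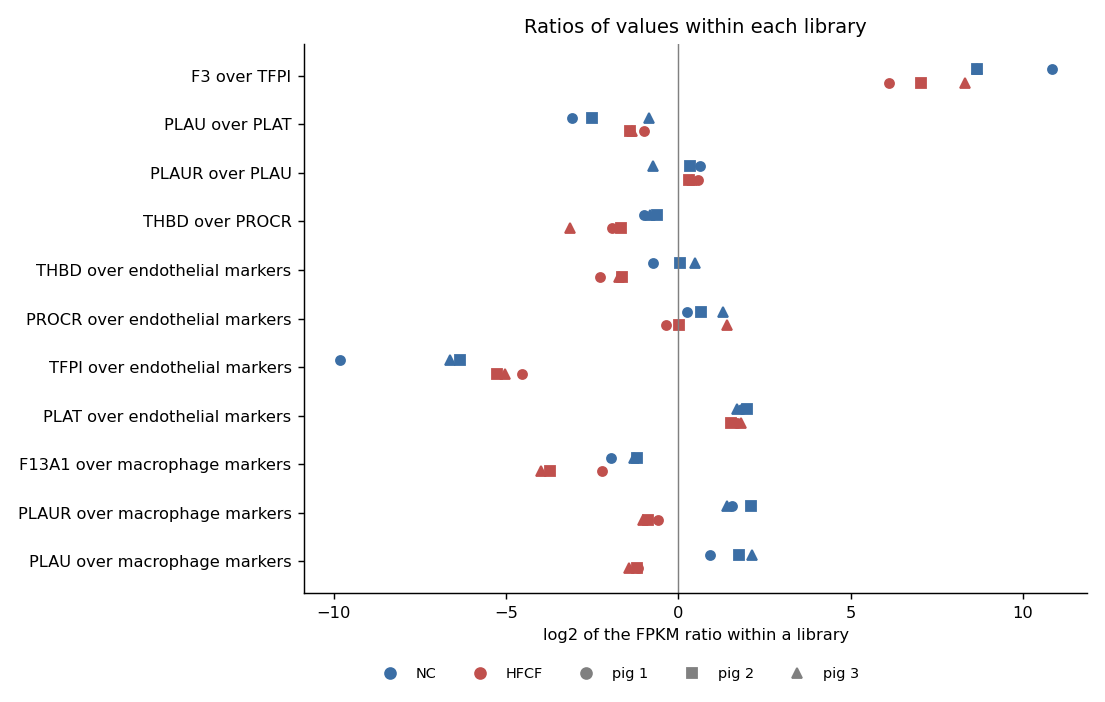
Log2 of 11 ratios of FPKM values within each library, NC in blue and HFCF in red, with 1 symbol per pig. THBD lies lower in the HFCF pigs relative to PROCR and to endothelial markers, TFPI lies higher relative to endothelial markers, and PLAU, PLAUR and F13A1 lie lower relative to macrophage markers.

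As a description of pattern, the 2 genes most like each member over the 6 libraries were found among 9582 genes with a symbol and a mean FPKM of at least 1, by Pearson's r of log2(FPKM + 0.1). The 6 libraries share a diet contrast and each gene was picked as the closest of many, so these values carry no test. THBD was most like CHFR (r = 0.996) and PHF13 (r = 0.993), PLAUR most like ZFP36L1 (r = 0.998) and PDE4B (r = 0.994), and F13A1 most like TMEM154 (r = 0.996) and SMC6 (r = 0.992). PLAU was most like PDE7A (r = 0.995) and ARPC5L (r = 0.987), and TFPI most like PPP2CA (r = 0.996) and GTF3C3 (r = 0.995). PLAT was most like NR1D1 (r = 0.996), a clock gene that was at 5.06, 8.67 and 1.96 FPKM in the NC pigs and at 9.14, 2.72 and 1.73 FPKM in the HFCF pigs, and like CBR2 (r = 0.986). Like PLAT, NR1D1 was lowest in pig 3 of each group. F3 was most like TEX10 (r = 0.989) and RAB9A (r = 0.965), TFPI2 most like RNF4 (r = 0.990) and PURA (r = 0.980), and PROCR most like GFPT2 (r = 0.987) and SPAG9 (r = 0.985).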

How the data were processed

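RNA of the abdominal aorta was sequenced as paired-end reads in 3 NC and 3 HFCF pigs. The authors used HISAT2 for alignment and StringTie for assembly, per the methods, and the deposited values are FPKM per gene. Read counts were not used, so depth is unknown beyond the relative depths given, and precision was taken from the spread between pigs. The deposited value of 0.0001 was read as 0. The genome build of the methods differs from the annotation at hand (Sscrofa11.1), so no coordinates or sequences are given. GO and KEGG columns were not used.

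Genes were fitted with limma 3.58.1 in R 4.3.3 (diet as factor, trended eBayes, two-sided p) on log2(FPKM + 0.1) for 15384 genes whose mean FPKM reached 0.1. In this fit the spread used for each gene is partly shared across all tested genes. The methods of the study name no test for differential genes. Ratios within libraries were tested with exact permutation. The limma step was tested on simulated data, with large changes in well-expressed genes of low spread. This does not cover members at low FPKM or with an outlying pig. The members and lists were chosen with earlier results of these data known.

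Named were all members, 10 fixed pathway genes and, in each list, up to 4 called genes with the largest change. Members of marker lists, F7, F11, F2RL1, F2RL3 and HRG were named after their values were seen. The alternatives were other pseudocounts, filters and scalings, no variance trend, a block by replicate number and each library left out. A further listed gene and the ratios to it are not reported here, so the counts of the pathway lists leave it out and support no statement on the lists as a whole. Groups came from sample titles.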

Additional observations from a re-analysis of the deposited data

How the results depend on the processing

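The number of members called was 1 in all 15 alternatives, and the pathway count was 8 to 11 against 10 in the main setting. All tested genes called were 4453, and 2399 to 3562 with single libraries left out. The share of calls that were higher was 78.7%, against 50.8% with median-ratio scaling, 50.1% with quantile normalization and 59.3% with TPM, where the median log2 fold change of all genes was -0.0027, -0.065 and 0.089. TFPI2 reversed to -0.17, -0.020 and -0.073 under these scalings and ranged from -0.11 to 0.35 with single libraries left out. Under the latter, PLAT ranged from -0.41 to 0.14, VWF from -0.70 to 0.17, KLF4 from -0.15 to 0.59 and the log2 difference of PLAUR over PLAU from -0.062 to 0.63. ANXA2 was -0.046 and KLF4 -0.13 with median-ratio scaling, and KLF4 was -0.038 with TPM. Members past the thresholds of the study were 4, but 2 with median-ratio scaling or TPM, 1 with quantile normalization and 1 to 4 with single libraries left out. A block by replicate number, which the data did not support as a pairing (correlations of same-numbered pigs of 0.021, -0.079 and -0.072), gave 2772 calls and 2 members past those thresholds, and THBD remained the 1 called member. The causes were not tested. With 3 pigs per group, exact permutation cannot go below 0.1, and intervals of about 1 log2 unit to either side limit what could be seen for F3, PLAU and PLAT.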
